A study of Saccharomyces cerevisiae with 6 samples.

Results

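The genes described here encode the glucose sensors of budding yeast, the repressors that act below them and a standard target, 10 genes chosen by name. They are the sensors SNF3 and RGT2, the corepressors MTH1 and STD1, the repressors RGT1, MIG1, MIG2 and MIG3, the phosphatase subunit REG1 and the invertase gene SUC2. Of the 10, 9 had a probe, 1 each, among 5365 genes on the array. No probe carried the name SNF3 in the annotation used here, so that gene was not analysed. Of the 9, 5 were measured in every one of the 3 replicates, as were 3613 genes in all. The genes were chosen with the thorium ratios of these arrays known, so those ratios are given as a description and no member is tested on them.

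Saccharomyces cerevisiae S288C, a laboratory strain, was grown at 25 °C in YPD, a rich medium with glucose. Exponential cultures received the actinide thorium to 5 mM and were kept with it for 2 h, and untreated cultures grew for the same 2 h with no addition. PolyA RNA from thorium cultures carried Cy5 and that from untreated cultures Cy3, and both were hybridised to 1 array, in 3 independent biological samples with no dye exchange. Scans at a high and a low laser power were made of each array, and both scans of an array count as 1 replicate. The labels give neither the salt of thorium used nor the pH of the medium. All values are log2 ratios, and positive ones likely mean more RNA in the thorium cultures. This reading follows the channel order in the labels, and base 2 was assumed.

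Yeast cells that find glucose in the medium switch on glucose transporters and switch off genes for other carbon sources. Snf3 and Rgt2 are transporter-like proteins of the plasma membrane that signal instead of carrying sugar, and their signal leads to the destruction of Mth1 and Std1, which Rgt1 needs to hold the HXT transporter genes off. In the other branch the zinc finger proteins Mig1 and Mig2 repress genes such as SUC2, while the kinase Snf1, active when glucose is short, inactivates Mig1. Reg1 brings the phosphatase Glc7 to Snf1 and so keeps the kinase off in glucose. The branches meet, since MIG2 and MIG3 are themselves glucose-induced genes under Rgt1, and MTH1 is repressed through Mig1 and Mig2.

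Replicate 1 stood apart from the other arrays, less so once array position was taken into account. Over the 3613 genes, Pearson's r was 0.56 between replicates 2 and 3, 0.09 between replicates 1 and 2 and 0.02 between replicates 1 and 3, across genes that share the array layout and are not independent. After subtracting the median of each array section, a step described below, r was 0.46, 0.32 and 0.25 for the same pairs. Scans gave a value for 40.2% to 79.3% of 6912 probes. Replicate 1 gave the fewest values at either power, and it holds no value for MTH1, MIG3 or REG1. Limma's moderated test called 0 of 3613 genes at an adjusted p under 0.05, which is 0%, while 499 had an unadjusted p under 0.05 (smallest adjusted p = 0.271). Without replicate 1 the same test called 191 genes, 5.29%, of which 81 were higher and 110 lower in thorium. Each member's values are therefore given per replicate, and its mean also without replicate 1. RNA of a whole culture does not separate more cells with a transcript from more transcript per cell.

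MIG2 had the highest mean ratio of the measured members. This repressor, a close relative of Mig1 by its zinc fingers, read 1.48 in replicate 1, 2.38 in replicate 2 and 2.70 in replicate 3. All 3 arrays lay more than 1 log2 unit above 0, and the highest and lowest of the 5 scans with a value were 2.88 and 1.11. The mean was 2.19 ± 0.63 (SD, n = 3), a 4.55-fold ratio and rank 2 from the top of 3613 genes. In replicate 1 the value exceeded that of 92.8% of genes, in replicate 2 that of 98.9% and in replicate 3 that of 99.8%. Without replicate 1 the mean was 2.54. Of the 5 fully measured members MIG2 alone was at least 2-fold higher, beside 3.29% of all genes, while 3.21% were at least 2-fold lower. With the opposite direction of the ratio, rank and shares would turn round. Nothing is read from the 2-fold count, because this contrast chose the members.

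**Figure D1:**
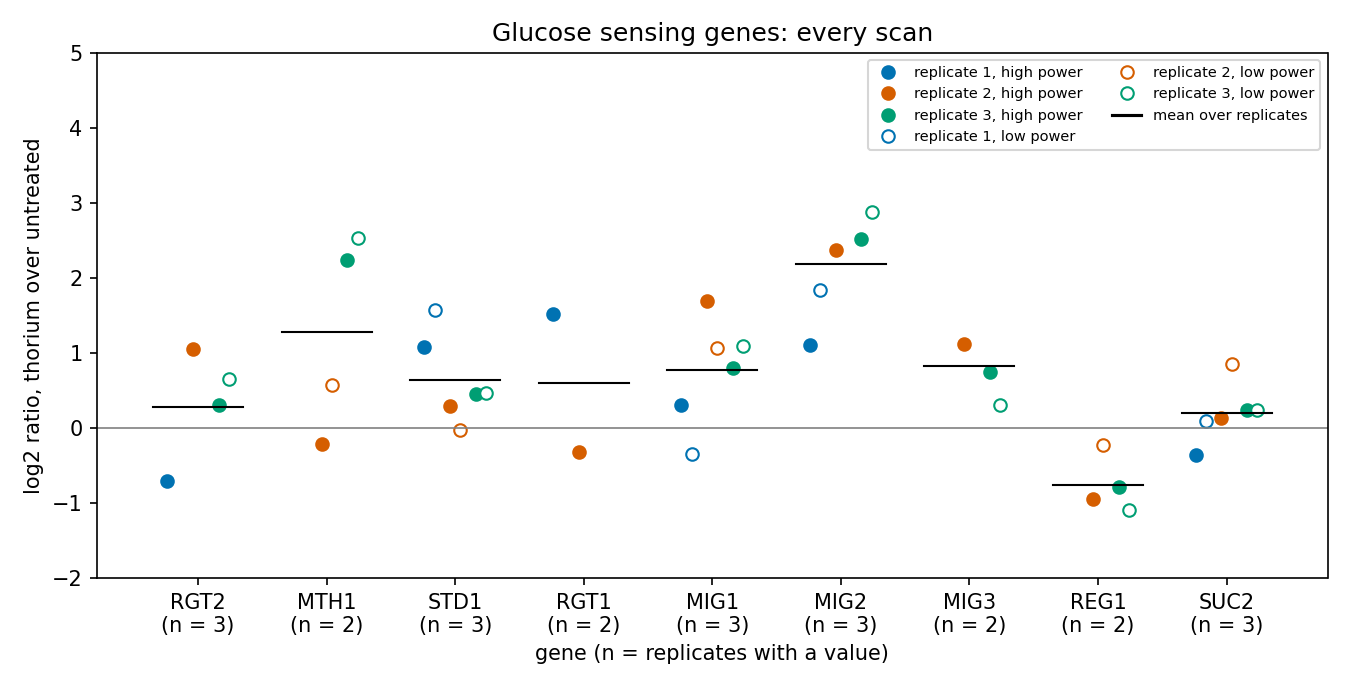
Each point is the log2 ratio, thorium over untreated, of a gene in 1 scan, filled for high and open for low laser power, coloured by replicate, with a line at the mean over replicates. All 5 scans of MIG2 lie at or above 1.11, all 4 scans of REG1 lie below 0, all 3 scans of MIG3 lie above 0, and the other 6 genes have scans on both sides of 0.

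MIG1 encodes the main repressor of glucose-repressed genes, and its ratios were smaller. It stood at -0.02 in replicate 1, 1.38 in replicate 2 and 0.95 in replicate 3. The value in replicate 1 averages scans of 0.31 at high and -0.35 at low power, on opposite sides of 0. Both scans of the other replicates lay above 0. The mean was 0.77 ± 0.72 (SD, n = 3), rank 229, and 1.17 without replicate 1. MIG2 exceeded MIG1 in each of the 3 replicates, by 1.50, 0.99 and 1.75, or 1.41 ± 0.39 on average (SD, n = 3). In replicate 2 MIG2 had only a high power scan, at 2.38, while MIG1 read 1.70 at high and 1.07 at low power. The 0.99 thus sets unlike scans side by side. The differences between MIG2 and MIG1 are untested, since the ratios of both genes guided their choice, and nothing is read from their size.

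MIG3 encodes a further zinc finger repressor of the family, with fewer known targets. It read 1.12 in replicate 2 and 0.53 in replicate 3 (mean 0.83 ± 0.42, SD, n = 2), and it lay below MIG2 and below MIG1 in both. In replicate 3 its scans read 0.75 at high and 0.31 at low power. In those replicates the members of the MIG family were thus all above 0, in the order MIG2, MIG1, MIG3, while MIG1 and MIG3 differed by 0.26 and 0.42. In replicate 2 MIG3, like MIG2, had only a high power scan, whereas the MIG1 value averages both scans.

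RGT1, the DNA-binding repressor of the hexose transporter genes, had a value in 2 high power scans. They gave 1.52 in replicate 1 and -0.32 in replicate 2, on opposite sides of 0, so no level can be set for it (mean 0.60 ± 1.30, SD, n = 2).

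The corepressors Mth1 and Std1 are paralogs that bind Rgt1 and are removed when glucose is sensed. MTH1 read 0.18 in replicate 2 and 2.39 in replicate 3. Its ratio in replicate 3 exceeded that of 99.7% of genes, whereas in replicate 2 the scans read -0.22 at high and 0.58 at low power. The mean of 1.28 ± 1.56 (SD, n = 2) thus rests on replicate 3. STD1 read 1.33 in replicate 1, 0.14 in replicate 2 and 0.46 in replicate 3, all above 0. In replicate 2 its scans read 0.29 at high and -0.02 at low power. Its mean was 0.64 ± 0.62 (SD, n = 3), rank 349, and 0.30 without replicate 1. The array with the highest STD1 ratio is the one with the lowest MIG2 and MIG1 ratios.

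RGT2 encodes the sensor for abundant glucose. It read -0.70 in replicate 1, 1.05 in replicate 2 and 0.48 in replicate 3, which spread over 0 (mean 0.28 ± 0.89, SD, n = 3, and 0.77 without replicate 1).

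REG1 was the 1 member with a mean below 0. This subunit, which directs the phosphatase Glc7 to Snf1, read -0.58 in replicate 2 and -0.94 in replicate 3, and all 4 of its scans were below 0. The mean was -0.76 ± 0.25 (SD, n = 2), a ratio of 0.59. MIG2 exceeded REG1 by 2.96 and 3.64 in those replicates. In replicate 2 this sets the high power scan of MIG2 against both scans of REG1.

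SUC2 encodes secreted invertase, a much used target of repression by Mig1 and Mig2. Its ratios were -0.13 in replicate 1, 0.50 in replicate 2 and 0.24 in replicate 3, on both sides of 0 and with the lowest mean of the 5, 0.20 ± 0.32 (SD, n = 3), rank 1059. Without replicate 1 the mean was 0.37. MIG2 exceeded SUC2 by 1.98 ± 0.43 (SD, n = 3), in 3 of 3 replicates. In replicate 2 this sets the high power scan of MIG2 against both scans of SUC2.

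Among the 5 members with 3 values, the order of means was MIG2, MIG1, STD1, RGT2, SUC2. Within the 4 below MIG2, neighbours in that order differed by less than the SD of either. The median of the 5 was 0.64, with replicate medians of -0.02, 1.05 and 0.48, beside a median of -0.09 over all 3613 genes. Of these members 2, MIG2 and STD1, were above 0 in all 3 replicates, as were 15.4% of all genes, while 23.2% were below 0 in all 3. A member needed a value on every array to be among the 5, and whether having a value depended on the signal in thorium was not tested. No statement about all 10 genes follows from these counts.

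**Figure D2:**
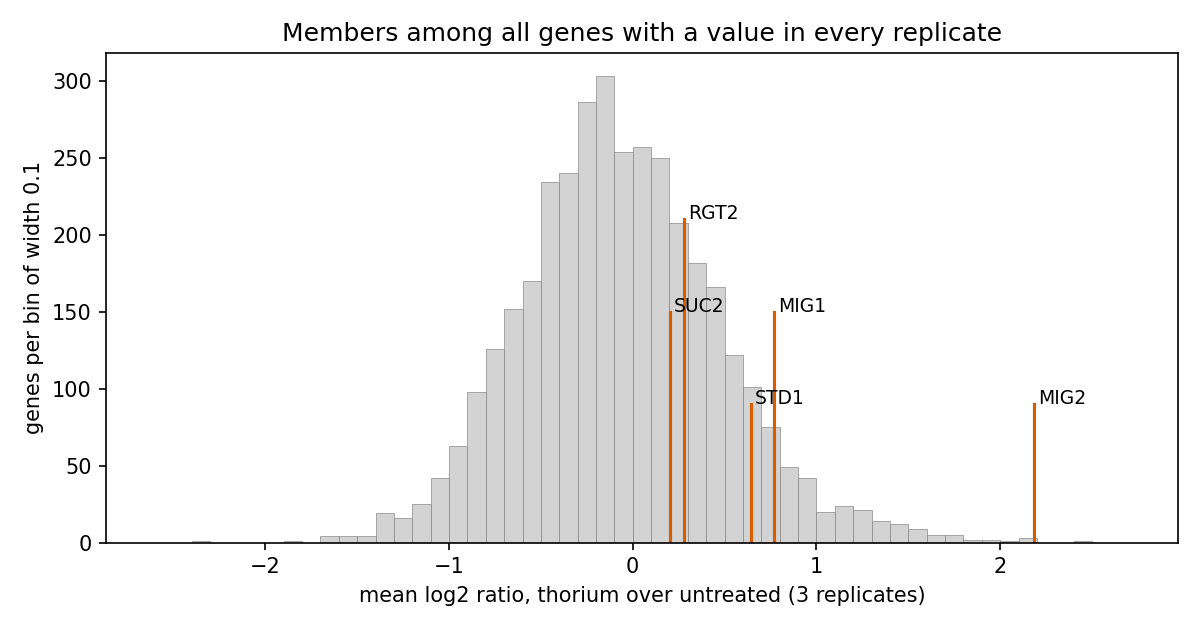
Grey bars count the 3613 genes with a value in every replicate by their mean log2 ratio, thorium over untreated, in bins of 0.1, and vertical lines mark the 5 members measured there (line height carries no value). MIG2 at 2.19 lies at the right edge, while SUC2, RGT2, STD1 and MIG1 lie between 0.20 and 0.77.

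The laser power moved single members by up to 0.80 within an array, the gap of MTH1 in replicate 2. STD1, MIG1 and SUC2 were measured in both scans of every array. High minus low power averaged -0.06 ± 0.40 for STD1, 0.33 ± 0.54 for MIG1 and -0.39 ± 0.36 for SUC2 (SD, n = 3). Limma on the difference of the scans gave adjusted p = 0.962 for STD1 and 0.929 for both MIG1 and SUC2, with 2 of 2108 genes called. For MIG2 the high power scan was the lower in both arrays with a pair of values, by 0.74 in replicate 1 and 0.35 in replicate 3.

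Position on the array moved with some of the ratios. The probe numbers divide the array into 192 sections of 36 probes, an inference from the numbers. The section of MIG2 had medians of 0.75, 0.75 and 0.44 in replicates 1, 2 and 3 in the scans that measured MIG2. After subtraction of its section median MIG2 read 0.72, 1.63 and 2.26, all above 0, with a mean of 1.54 ± 0.77 (SD, n = 3). The section of REG1 had medians of -0.71 in replicate 2 and -0.69 in replicate 3, close to the ratios of REG1 itself. REG1 then read 0.12 and -0.25, a mean of -0.06 ± 0.26 (SD, n = 2), on both sides of 0. Its low ratio is thus not seen relative to its section.

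The other members changed less or kept a wide spread. MIG1 and MIG3 lie in the same section, and after subtraction their means were 0.76 ± 0.48 (SD, n = 3) and 0.48 ± 0.46 (SD, n = 2). In replicate 2 the median subtracted was 0.57 for MIG1, over both scans, and 0.97 for MIG3, in the high power scan only. The 2 means are thus not like for like. MIG1 was then above 0 in all 3 replicates, at 0.26, 0.81 and 1.22. STD1 stayed at 0.62 ± 0.62 (SD, n = 3), with 1.27, 0.02 and 0.57 in replicates 1, 2 and 3. RGT1 read 1.33 and 0.55, both above 0, and MTH1 read 0.11 and 1.50. SUC2 read -0.76, 1.17 and 1.03, a mean of 0.48 ± 1.07 (SD, n = 3), so that replicate 1 opposed the other arrays more than before.

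**Figure D3:**
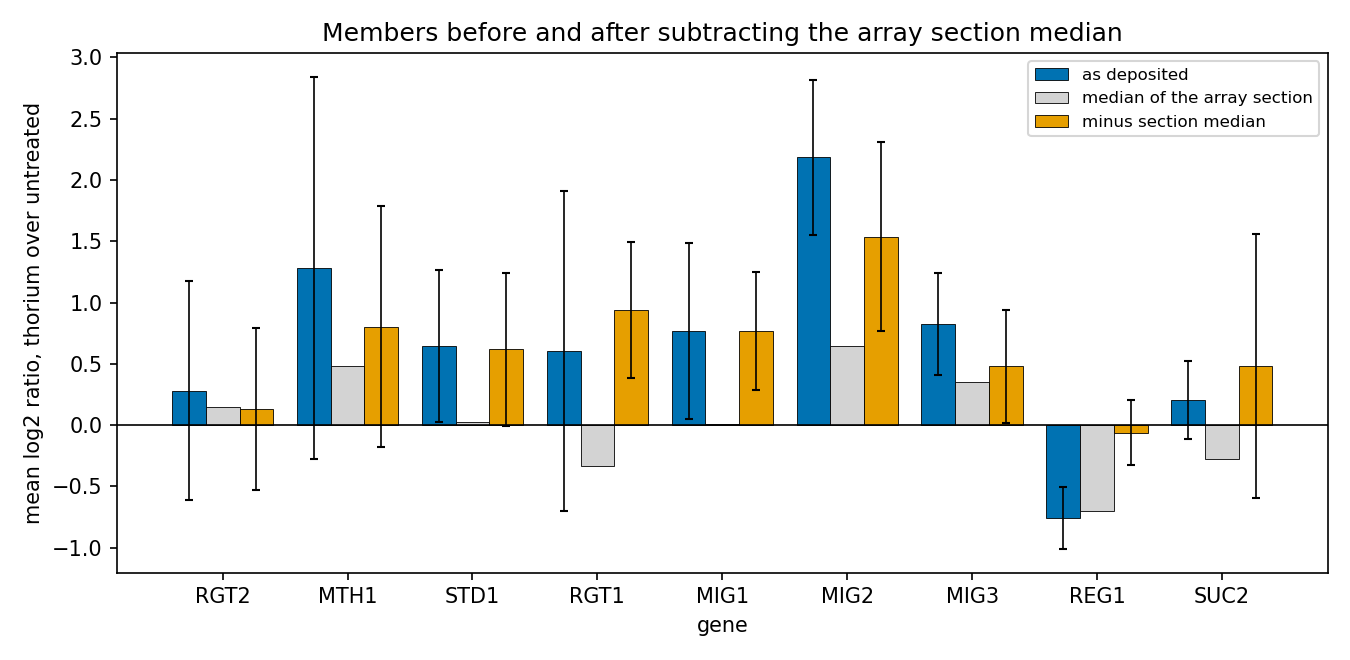
Bars give, for each member, the mean log2 ratio as deposited, the mean of its array section's medians, and the mean after that median is subtracted, with SD over 2 or 3 replicates as error bars. MIG2 stays the highest, at 1.54 after subtraction beside 2.19 as deposited, while REG1 moves to -0.06 beside -0.76.

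The 5 genes whose values were most like those of MIG2 over the 3 replicates were SOD2, YNL194C, YKR005C, XBP1 and PHO84. SOD2, the mitochondrial manganese superoxide dismutase, was the nearest, with a root-mean-square difference of 0.46 log2 units and values of 1.36, 2.14 and 1.96. XBP1, a stress-induced repressor, read 0.75, 1.82 and 2.25, and PHO84, the high-affinity phosphate transporter, read 0.56, 2.67 and 2.28. The search covered 3612 genes on 3 arrays. All 5 genes had high means themselves, between 1.60 and 1.84.

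**Figure D4:**
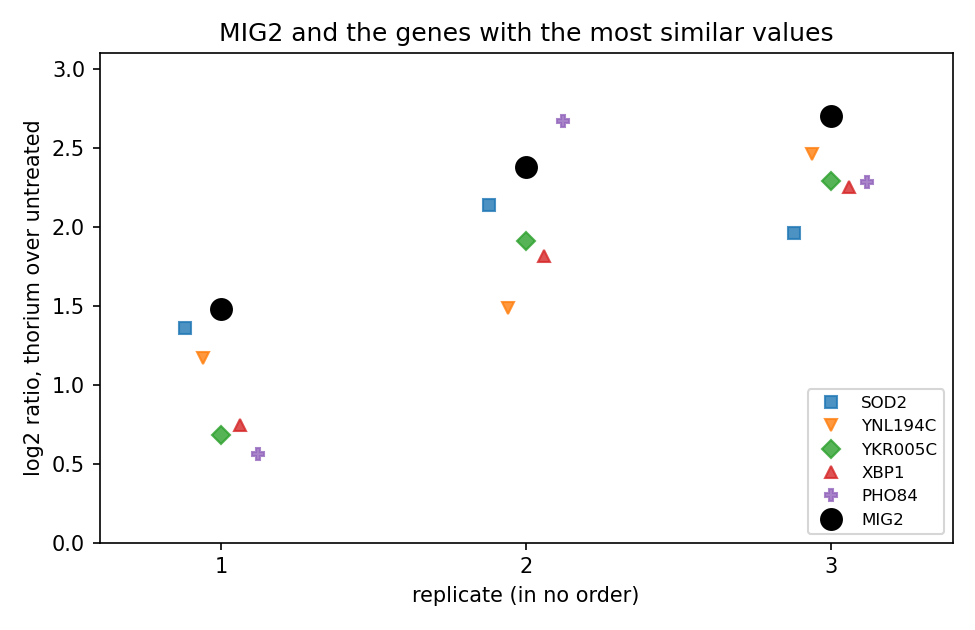
Points show the log2 ratio, thorium over untreated, of MIG2 (black) and of the 5 genes nearest to it in each of the 3 replicates. MIG2 is the highest of the 6 in replicates 1 and 3, and PHO84 exceeds it in replicate 2.

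Other parts of the glucose response were read from 6 lists, and limma called 0 members of any of them over all genes tested. Values below are over genes with a value on all 3 arrays, and each mean is given as deposited and then after section-centring. The Snf1 kinase complex and its regulators had 10 such genes of 11, with a median of -0.43, and -0.16 after centring. Of the 10, 2 had a mean above 0, beside 43.5% of all genes, and after centring 4 did, beside 47.2%. SNF4, the activating subunit of the kinase, read -0.72, -0.80 and -0.86, a mean of -0.79 ± 0.07 and of -0.53 ± 0.26 after centring (SD, n = 3). TOS3, a kinase that activates Snf1, stood at -0.93 ± 0.78 and at -0.34 ± 0.56 after centring (SD, n = 3). The phosphatase GLC7 stood at -0.75 ± 0.69 and then at -0.62 ± 0.35 (SD, n = 3). The hexokinase HXK2, which also serves glucose repression, was at -0.71 ± 0.29 and then at -0.33 ± 0.72 (SD, n = 3). The 2 genes with a mean above 0 as deposited were SAK1 and REG2. SAK1 stood at 0.51 ± 0.59 and then at 0.35 ± 0.16, and REG2 at 0.50 ± 0.71 and then at 0.51 ± 0.35 (SD, n = 3 each).

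Of the 7 sensor-side partners and general corepressors, 3 had values on all arrays. TUP1, the corepressor that Mig1 recruits, read 0.09, 0.72 and 1.58, a mean of 0.80 ± 0.75 and of 0.83 ± 0.22 after centring (SD, n = 3). Its partner CYC8 changed sign with centring, at -0.25 ± 0.58 as deposited and 0.16 ± 0.40 after it (SD, n = 3). YCK1, a casein kinase that acts on Mth1 and Std1, was at 0.02 ± 0.62 and then at -0.18 ± 0.67 (SD, n = 3).

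Among the activators of glucose-repressed genes, 3 of 5 had values on all arrays. CAT8, an activator of gluconeogenic genes, read 0.68, 0.86 and 1.36, a mean of 0.97 ± 0.35 and of 0.43 ± 0.39 after centring (SD, n = 3). HAP4, an activator of respiratory genes, stood at 0.68 ± 1.20 and then at 0.39 ± 0.84, and ADR1 at -0.24 ± 1.45 and then at -0.24 ± 1.33 (SD, n = 3 each).

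The cAMP and protein kinase A branch also answers to glucose. Of the 16 genes listed with it 10 had a probe and 7 had values on all arrays, with a median of -0.11, and 0.12 after centring. RAS2, a small GTPase that activates adenylate cyclase, read -1.50, -0.93 and -1.40, a mean of -1.27 ± 0.31 and of -0.69 ± 0.47 after centring (SD, n = 3). SCH9, listed with the branch rather than as a part of it, stood at 0.36 ± 0.66 and then at 0.51 ± 0.09. GPA2 stood at 0.31 ± 0.80 and then at 0.15 ± 0.29 (SD, n = 3 each). BCY1, the inhibitory subunit of the kinase, changed sign with centring, at -0.25 ± 0.32 as deposited and 0.09 ± 0.31 after it (SD, n = 3).

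The genes that these regulators control had medians above 0 and wide spreads. Of 7 hexose transporters 5 had values on all arrays. Each of the 5 had a mean above 0, beside 43.5% of all genes. None was above 0 in all 3 replicates, beside 15.4% of all genes. The median of the 5 was 0.30, but 0.06 without replicate 3 and 0.58 without replicate 1. HXT5, HXT1, HXT3 and HXT6 stood at 0.58 ± 0.77, 0.53 ± 0.82, 0.30 ± 0.35 and 0.10 ± 0.85 (SD, n = 3 each), and at 0.59, 0.63, 0.46 and 0.15 after centring. HXT6 has a near-identical copy in HXT7 that its probe may not separate, so both may carry 1 signal in the count of 5. HXT7 stood at 0.07 ± 0.84, and below 0 after centring, at -0.24 ± 0.40 (SD, n = 3). As deposited, HXT6 and HXT7 read -0.87 each in replicate 1, 0.41 and 0.33 in replicate 2, and 0.75 and 0.74 in replicate 3. Their gap after centring thus comes mostly from the section medians subtracted, so centring can itself set genes apart.

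Of 19 other glucose-repressed genes 11 had values on all arrays, 7 of them with means above 0, beside 43.5% of all genes. The median of the 11 was 0.46, but 0.17 after centring, 0.13 without replicate 1 and 0.14 without replicate 2. ACS1, an acetyl-CoA synthetase, stood at 1.31 ± 1.27, and at 1.20 ± 0.84 after centring (SD, n = 3). MAL12, a maltase, was at 0.99 ± 1.24 and then at 1.08 ± 0.46 (SD, n = 3). Its close relative MAL32 had a value in replicate 2 alone, -0.65, where MAL12 read 1.77. Whether the probes share signal was not tested. The lactate transporter JEN1 was at 0.80 ± 2.06 and then at 0.89 ± 1.18 (SD, n = 3). The galactokinase GAL1 was at 0.94 ± 1.17 as deposited and near 0 after centring, at 0.09 ± 1.02 (SD, n = 3). Means below 0 as deposited were those of HXK1, GAL10, EMI2 and ADH2, at -0.36, -0.21, -0.05 and -0.01. After centring 8 of the 11 had a mean above 0, beside 47.2% of all genes. HXK1, GAL4 and GAL7 were then below 0, at -0.23, -0.35 and -0.61. ACS1, MAL12 and JEN1 were below 0 in replicate 1 and between 1.61 and 2.39 in the others. Without replicate 1, limma called these 3 of the 11 as higher in thorium, beside 2.24% of all genes called in that direction. It called 0 members of the other 5 lists. Replicate 1 is the array in which the 3 genes were below 0, so nothing is read from this count.

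**Figure D5:**
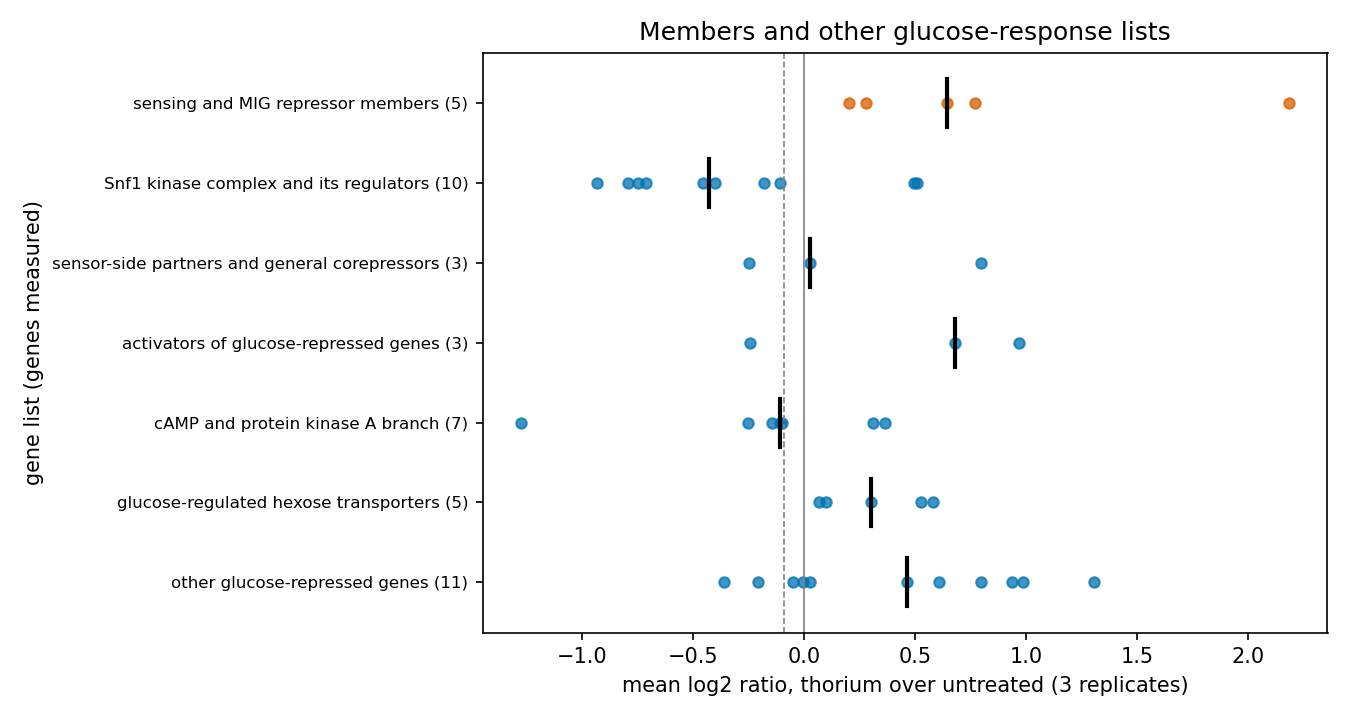
Each point is a gene's mean log2 ratio, thorium over untreated, over 3 replicates, for the 5 measured members (top) and 6 further lists, with a bar at each list's median and a dashed line at the median of all 3613 genes, -0.09. The Snf1 list has its median at -0.43, and MIG2 at 2.19 lies beyond every point of the other lists.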

How the data were processed

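Per the labels' descriptions, LOWESS normalization used the spots flagged 0, and GeneSpring merged the high and low power scans into values that are not used here. No scanner, background step or version is given in the sources used here. Values as deposited are log ratios per spot and scan, read here as log2, with base and direction unstated in the table. Because of LOWESS, a shift common to most genes would not show. The number of arrays limits the precision, and signal brightness was not used here.

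Of 6912 probes, 5513 carried 1 gene name, and 5360 of 5365 genes were matched by Entrez ID to RefSeq (R64). Averages were taken over the probes of each gene and then over both scans of each replicate. Limma 3.58.1 in R 4.3.3 (lmFit, eBayes) tested each mean log2 ratio against 0 over the 3613 genes with 3 values, 2-sided, with Benjamini-Hochberg adjustment at 0.05, and the high minus low power difference likewise. The code was tested on simulated data.

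The members, gene lists and alternatives were chosen with earlier results of these data known. Every member is named, and from each further list up to 4 genes with the largest absolute mean over 3 replicates. From the Snf1, hexose transporter and other glucose-repressed lists, genes whose values go the other way are named as well. Those were chosen after their values were seen. Genes named in the closing section were chosen after their values were seen. Likeness was the root-mean-square difference over the replicates. Section-centring subtracts the median of the array section, read from the first digits of the probe number, in each scan where it holds at least 5 values. Further alternatives were either scan power by itself, a replicate block over all scans, other filters on missing values, median and quantile centring, and leaving out each replicate.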

Additional observations from a re-analysis of the deposited data

How the results depend on the processing

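The count of genes called, 0 as deposited, was 0 under 8 of the 8 alternatives that kept all replicates, the replicate block over 6 scans among them, and ran from 0 to 191 when 1 replicate was left out. The median over the fully measured members was 0.64 as deposited, between 0.60 and 0.70 under those 8 alternatives and between 0.46 and 0.77 without 1 replicate. It rests on 3 genes in the low power scans and on 9 when values in 2 replicates sufficed. The count of genes that differed between scan powers was 2 as deposited, 0 after median centring, quantile normalization or section-centring, and from 0 to 2 without 1 replicate, and the cause was not tested. Filters on missing values do not alter a single gene, so each member had another value in 5 to 9 of the 11 alternatives. In these, MIG2, MIG1, MTH1, STD1, MIG3 and SUC2 stayed above 0 and REG1 below it, but REG1 was -0.06 with section-centring, and SUC2 was 0.0096 in the high power scans alone. MIG2 ranged from 1.54 with section-centring to 2.54 without replicate 1. RGT2 was -0.11 without replicate 2, and RGT1 was -0.32 without replicate 1, where it rests on 1 array. The median of the other glucose-repressed genes was -0.01 over the 3 with a value in all 6 scans, and 0.13 without replicate 1.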

Other observations

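Glucose-repressed genes that lacked a value on 1 or 2 arrays enter no count above. There were 7 of them, 6 with a mean above 0, beside 52.7% of all 1610 partly measured genes. Those 1610 include genes with a value in replicate 1, so the sets are unlike and nothing is read from this count. ICL1, the glyoxylate cycle enzyme isocitrate lyase, read 1.15 in replicate 2 and 1.49 in replicate 3, the maltose permease MAL11 1.06 and 1.49, and the galactose permease GAL2 0.91 and 2.32. FBP1, the gluconeogenic fructose bisphosphatase, had its 1 value in replicate 3, at 2.32. PCK1, the carboxykinase of the same pathway, had 2.08 in replicate 2 only, but 0.43 after section-centring. GAL3, the galactose sensor, had 1.58 in replicate 2, while MAL32 was at -0.65 there. None of the 7 had a value in replicate 1, and the part that signal strength had in this was not tested.

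By gene order in the RefSeq table, the neighbours of MIG2 are YPT32 and SIP2, which stood at 0.78 ± 1.09 and -0.11 ± 0.48 (SD, n = 3 each). YPT32 read 1.94, 0.62 and -0.21 in replicates 1, 2 and 3, beside 1.48, 2.38 and 2.70 for MIG2. With MIG2 at rank 2 of 3613 genes, nothing is read from the lower means beside it. Beside MTH1 lie PMP3, a small membrane protein gene, at 1.44 ± 0.62 (SD, n = 3), and RNH202 at -0.10 ± 0.52 (SD, n = 2). In replicates 2 and 3 PMP3 read 1.70 and 0.73, where MTH1 read 0.18 and 2.39.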
